A study of Danio rerio with 8 samples.

Results

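One liver RNA of zebrafish held without cadmium and sampled at day 4 stood apart from its 2 hybridisation partners at 139 of 43603 array probes. At 89 probes (0.204% of all) the day 4 RNA was at least 2-fold higher than both partners, and at 50 (0.115%) it was at least 2-fold lower than both. These probes were chosen by those same measured ratios, so their values on the 2 arrays of the day 4 RNA are a description and carry no test. A table of the array platform gave a gene to 78 of the 89 higher probes (67 genes) and to 30 of the 50 lower ones (27 genes). A further 51 probes were at least 2-fold on both arrays but followed the dye instead of the RNA, and they are not among the members.

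The groups were liver RNA of Danio rerio at 0 µM cadmium and day 4 (1 RNA), and at 0, 1 and 5 µM cadmium and day 28 (2 RNAs per dose, labelled as biological replicates). Strain, sex, age, the route of exposure and the number of fish behind each RNA are not stated in the labels. The 7 RNAs were joined in a loop of 8 Agilent arrays with 2 dyes, and each value is a log2 ratio of one RNA over another. The day 4 RNA had no replicate, and both of its partners, 1 µM replicate 1 and 5 µM replicate 2, were exposed to cadmium, so time, exposure and single RNAs cannot be told apart in the choice of these probes. Ratios were read with the red dye on top, the likely direction, which no source states. Every direction below would turn round with the green dye on top.

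The liver makes most plasma proteins, among them complement factors and the proteins of the acute phase, and it elongates and stores fatty acids. Cadmium, a toxic metal, builds up there. In zebrafish the exocrine pancreas, which makes digestive enzymes, is diffuse and lies close to liver and gut. Egg coat (zona pellucida) proteins are made in the ovary of zebrafish, whereas egg yolk precursors are made by the liver of females.

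Before the members are described, 2 features of the loop bear on them. The RNA of 0 µM replicate 2 was rich in egg coat transcripts: 30 of 40 egg coat probes were at least 2-fold lower in 5 µM replicate 1 than in it, with a median log2 ratio of -2.08, and 28 of 40 were at least 2-fold lower in 1 µM replicate 2. Against 0 µM replicate 1 these numbers were 11 and 0. The list and its medians also include probes of zpr1, a zinc finger gene and not an egg coat gene, but none of these was 2-fold on these arrays. The egg coat list had a median level of 0.28 in the day 4 RNA, 1.11 in 0 µM replicate 2 and 0.73 in 5 µM replicate 2, and between -0.66 and -0.21 in the other 4 RNAs. Levels are log2 values estimated from all 8 arrays with a dye term and are given relative to the mean of the 6 RNAs of day 28. The second feature is that the paths between the controls did not close well. The log2 difference of 0 µM replicate 2 over replicate 1 can be read through 5 µM replicate 1 or through 1 µM replicate 2. Both readings had the same sign at 62 of the 89 higher members (Pearson r = 0.526 across probes), at 29 of the 50 lower ones (r = 0.145) and at 54% of all other probes (r = 0.231). Across all probes, the array of 1 µM replicate 2 and 0 µM replicate 1 ran against the value that the other 7 arrays give for it (r = -0.322, and -0.106 with a dye term), whereas the array of 5 µM replicate 1 and 0 µM replicate 2 ran with its own (r = 0.745 and 0.682). The array of the day 4 RNA and 1 µM replicate 1 had r = -0.0411 (0.354 with a dye term). That of the day 4 RNA and 5 µM replicate 2 had 0.194 (0.177), and that of 5 µM replicate 1 and 1 µM replicate 1 had -0.107 (0.418). A gap in the loop cannot be assigned to a single array, and the arrays that chose the probes closed poorly too. The array of 1 µM replicate 2 and 0 µM replicate 1 was kept as deposited. The fitted values at 1 µM, the dye term, through that term the fitted values at 5 µM, and the levels rest in part on this array. Its own counts below would change direction if its sign were turned. Probes of one gene share RNA and arrays, so these correlations describe the loop only. For the level of the day 4 RNA the loop left 1 residual degree of freedom, and the median SE was 0.32 over the higher and 0.33 over the lower members. The dye term takes up part of the gaps in the loop, and these SEs leave that part out. Without a dye term, each day 4 array missed the value from the other 7 arrays with an SD of 1.27 over the higher members. Over the lower members this SD was 1.43.

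The labelled tissue was checked on a list of hepatocyte genes, of which 13 probes of 6 genes were on the array. None was a member, nor was any of 6 egg yolk, 8 red blood cell, 9 immune cell, 5 intestine or 6 metal response probes. Ratios do not show how strongly a gene was expressed, so presence of a tissue could not be judged from them. Among the metal response probes, the day 4 RNA was above 1 µM replicate 1 at 3 of 6 and above 5 µM replicate 2 at 6 of 6, with ratios from -0.49 (hmox1a over 1 µM replicate 1) to 0.33.

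On the 2 arrays that chose them, the 89 higher probes had a median log2 ratio of 1.52 over 1 µM replicate 1 and 1.87 over 5 µM replicate 2. The 50 lower probes had medians of -1.34 and -1.41 on the same arrays. The least extreme higher members were selenof with 1.10 and 1.01, selenoe with 1.01 and 1.497, and c3a.1 with 1.07 and 1.02. Just outside lay plod3 with 0.99 and 0.99 and eif4a2 with 0.97 and 1.32. In the other direction cdc42se1 was just inside with -1.05 and -1.004, and creb3l3a just outside with -0.99 and -1.58.

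Digestive enzymes of the exocrine pancreas were the best filled group among the higher probes. The list of pancreatic enzymes, put together after these genes were seen, had 33 probes of 23 genes on the array, and 17 probes of 12 genes were members. A shorter marker list of the exocrine pancreas had 8 probes on the array, of which 3 were members, the trypsins. The 17 probes cover trypsins (prss1, prss59.1, prss59.2), elastases (cela1.5, cela1.6, ela2l, ela3l), chymotrypsins (ctrb.1, ctrb.2, ctrb.3, ctrl) and carboxypeptidase B (cpb1). Prss59.1 (probe A_15_P110812) was 2.71 over 1 µM replicate 1 and 2.50 over 5 µM replicate 2, and prss59.2 was 2.70 and 2.28. Of the other 16 probes of the list, 12 were above 0 on both of these arrays. Over all probes, 49.5% were above 0 on the first array and 51.2% on the second, and the share on both was not counted. The list was made after its members were seen, so the count is a description only. One of the 16 probes, a second probe of prss59.1, was flat at 0.02 and -0.05, so probes of this gene disagreed.

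Outside the choice of probes, these 17 enzyme probes did not move one way with dose. In 5 µM replicate 1 they had a median log2 ratio of -0.85 over 0 µM replicate 2, with 6 probes at least 2-fold lower and 2 above 0. Over 0 µM replicate 1 the same RNA had a median of 0.19, with 12 of 17 above 0. In 1 µM replicate 2 the medians were -0.18 over 0 µM replicate 2 and 0.55 over 0 µM replicate 1, so both exposed RNAs were below one control RNA and above the other. The median level of the whole list was 0.78 in the day 4 RNA and -0.41 to 0.33 in the RNAs of day 28, and that of the 17 was 1.40 in the day 4 RNA. At day 28 it was -0.19 and 0.84 in the 0 µM RNAs, -0.57 and 0.53 in the 1 µM RNAs, and -0.20 and -0.47 in the 5 µM RNAs, replicate 1 before replicate 2. The levels of 1 µM replicate 1 and 5 µM replicate 2 were used in the choice of the probes. The 2 RNAs of 0 µM, which were not, lay 1 on each side of 0. In liver RNA, more pancreatic cells and more enzyme RNA per cell cannot be told apart.

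A pair of islet hormones was higher too. The probe of ins, which encodes insulin, was 1.68 over 1 µM replicate 1 and 2.57 over 5 µM replicate 2, and that of sst2, of the somatostatin family, was 1.56 and 1.74. Of 7 islet hormone probes, in a list made after these genes were seen, these 2 were members. Above 0 on both arrays were 6 of the 7, with these 2 placed there by the rule. Both member probes were slightly higher in 5 µM replicate 1 than in 0 µM replicate 2 (0.39 and 0.07) and lower than in 0 µM replicate 1 (-0.07 and -0.47). Their levels in 0 µM replicate 2 were -0.11 and 0.04, against a median of 0.84 for the enzyme members.

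The largest ratios of all belonged to rnasel2, a ribonuclease-like gene: probe A_15_P169116 was 4.57 over 1 µM replicate 1 and 4.79 over 5 µM replicate 2. Its level was 4.01 in the day 4 RNA and 2.03 in 0 µM replicate 2, against -0.96 to 0.51 in the other 5 RNAs. The other 2 member probes of the gene were uneven, with 1.15 and 2.31 for A_15_P178006 and with 1.03 and 3.72 for A_15_P446810. Others among the 10 members of largest size were si:dkey-14d8.6 (3.52 and 2.80), mhc1uba, a class I histocompatibility gene (2.51 and 3.72), and sat2a.2, of the polyamine acetyltransferase family (2.81 and 2.47). These 3 also had their highest day 28 level in 0 µM replicate 2, at 2.21, 1.88 and 1.37. The rest of the 10 were hamp, prss59.1, a cela1.6 probe (2.30 and 2.34), si:ch211-240l19.8 (2.62 and 2.83) and 2 probes of si:ch211-240l19.5 (2.81 and 3.05, 2.46 and 2.90).

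Plasma proteins of complement and the acute phase formed another group, with 10 members among 54 probes of 29 genes in a list drawn up after the genes were seen. Hamp, which encodes the iron hormone hepcidin, was 2.84 over 1 µM replicate 1 and 3.39 over 5 µM replicate 2. The lectin itln3 was 1.85 and 3.54 at one probe and 1.20 and 2.53 at another. The complement gene c7b was 1.76 and 2.18, and lect2.2, a chemotactic factor of liver, was 2.01 and 4.00. The pentraxin apcs (2 probes), the heme carrier hpxb, c3a.1 and c1r complete the group. The whole list, members included, had medians of 0.13 over 1 µM replicate 1 and 0.42 over 5 µM replicate 2. Of its 54 probes 30 were above 0 on both arrays, the 10 members among them by the rule, and 9 were below 0 on both. Non-member probes were at 0.49 and 3.73 for hamp, 0.56 and 1.72 for hpxb, 0.61 and 0.14 for c1r, but 0.16 and -2.41 for c3a.1.

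The 10 plasma protein members ran against the enzymes in the control RNA rich in egg coat transcripts. Their median log2 ratio in 5 µM replicate 1 was 1.24 over 0 µM replicate 2, with 9 of 10 above 0, and -0.45 over 0 µM replicate 1, with 2 of 10 above 0. C7b was the most divided, at 3.25 and -0.72 on these arrays, and it was 4.00 in 5 µM replicate 2 over 0 µM replicate 2. Over the whole list the median was 0.65 over 0 µM replicate 2 and -0.12 over replicate 1. The part of the egg coat transcripts in these values was not tested.

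Several single members outside the rule for named genes were picked out after their values were seen, for their roles in metabolism and signalling. The AP-1 transcription factors junba (1.28 and 1.72) and junbb (1.73 and 1.22) were members, while 12 other probes of AP-1 genes were not. Their levels were 1.51 and 1.53 in the day 4 RNA and 1.38 and 1.44 in 0 µM replicate 1, against -1.14 to 0.51 in the other 5 RNAs. Igfbp1a, which binds insulin-like growth factors, was 1.58 and 2.35 over the partners, and its level of 1.44 in the day 4 RNA was close to the 1.36 of 0 µM replicate 1. Tdo2b, the first enzyme of tryptophan breakdown, was 2.08 and 2.25 over the partners but lower in the day 4 RNA than in 0 µM replicate 1, with levels of 1.08 and 1.39. The probe of zp2.3, an egg coat gene, was 1.17 and 1.37. It was far lower in 1 µM replicate 2 (-5.02) and in 5 µM replicate 1 (-3.41) than in 0 µM replicate 2, and 2 further probes of the gene were above 1 µM replicate 1 (1.38 and 1.31) and below 5 µM replicate 2 (-0.25 and -0.09).

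Among the 50 lower probes, 3 were of fatty acid elongases. Elovl6, which lengthens saturated fatty acids, was -1.50 against 1 µM replicate 1 and -2.53 against 5 µM replicate 2 at probe A_15_P108810, and -1.28 and -1.27 at A_15_P221101. Elovl2, which lengthens polyunsaturated fatty acids, was -1.29 and -1.14. Of 18 elongase probes of 11 genes, in a list made after these were seen, these 3 were members, and of the other 15 probes 3 were below 0 on both arrays and 4 were above 0 on both. The median log2 ratios of the 18 were 0.07 and -0.12. Single lower members picked after their values were seen were lpin1a, a phosphatidate phosphatase (-1.17 and -1.22), chka, a choline kinase (-1.88 and -1.04), and pla2g12b, of the phospholipase A2 family, at 2 probes (-1.13 and -1.38, -1.10 and -1.23). Further probes were not below 0 on both arrays, at 0.09 and -0.73 for lpin1a, 0.05 and -0.02 for chka, and -1.09 and 0.15 for pla2g12b.

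The 4 lower members of largest size were probes without a gene in the table, led by A_15_P276441 with -2.39 and -2.76. The named ones after them were cbln14 (-1.60 and -1.54), elovl6, the protease ctsl.1 (-2.65 and -1.50), rdh1, a retinol dehydrogenase (-2.82 and -1.48), ndrg1a (-1.47 and -1.61) and zgc:113363 (-1.52 and -1.44). Rdh1 had a second member probe at -1.41 and -1.40. Hsd11b2, which inactivates cortisol, was a member with a single probe (-1.28 and -1.60). Picked after their values were seen were ephx1, an epoxide hydrolase (-1.46 and -1.29), and cyp2x9, a cytochrome P450 (-1.64 and -1.04). Other probes of ephx1 were at -0.43 and -0.89 and at 0.16 and 0.03. No list of genes of steroid or foreign compound metabolism was made, so these are single probes only.

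Elovl6 was as low in 0 µM replicate 2 as in the day 4 RNA. The levels of A_15_P108810 were -1.84 in the day 4 RNA and -1.85 in 0 µM replicate 2, against -0.24 to 0.90 in the other 5 RNAs. Furina (-1.71) and agxt2 (-1.27), both picked after their values were seen, and ndrg1a (-0.94) also had their lowest day 28 level in that control. The lower probes ran below 5 µM replicate 1 there as a set: in 5 µM replicate 1 their median log2 ratio was 0.95 over 0 µM replicate 2, with 41 of 50 above 0, but -0.06 over 0 µM replicate 1, with 23 of 50 above 0. Neither control RNA was used to choose the probes.

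Many probes of the same genes did not share the shift. For the 67 genes of the higher members the array held 43 other probes of 33 genes, of which 26 were above 0 on both day 4 arrays, 1 was below 0 on both and 16 were mixed. Their median ratios were 0.33 over 1 µM replicate 1 and 0.15 over 5 µM replicate 2. For the 27 genes of the lower members there were 17 other probes of 12 genes, 8 below 0 on both, 4 above 0 on both and 5 mixed, with medians of -0.11 and -0.05. The share of all probes with the same direction on both arrays was not counted, so no excess is read from these counts. Several members on the same gene, as for cela1.6 (4 probes), occurred for 8 higher and 3 lower genes.

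Since both partners were exposed, the day 4 RNA was also placed against the unexposed RNAs of day 28 through the loop. Each such path contains an array that chose the probes, so this is no independent test. Relative to the mean of the 0 µM RNAs, the higher members had a median log2 difference of 1.08 (median SE 0.39), between -0.55 and 4.08. At least 2-fold higher were 52 of the 89, and 3 were lower, against 190 and 21500 of all 43603 probes. The lower members had a median of -1.14 (median SE 0.41), between -3.26 and 0.75, with 30 of 50 at least 2-fold lower and 1 higher. The SEs leave out the part of the loop gaps that the dye term takes up. The counts over all probes are for the higher direction, and the share of all probes at least 2-fold lower was not counted. The choice of the probes favours these directions, so nothing is read from the counts.

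The day 4 level lay above all 6 day 28 RNAs at 73 of the 89 higher probes and below all 6 at 43 of the 50 lower ones, against 16.7% and 16.6% of all probes. The rule itself places 2 of the 6 RNAs on the far side, so nothing is read from these counts. Along 2 separate chains of arrays, the day 4 RNA over 0 µM replicate 2 had median log2 ratios of 0.90 and 0.98 at the higher probes and of -0.85 and -0.78 at the lower ones. Both chains gave the direction of the rule at 74 of 89 and 39 of 50 probes, and a difference of at least 2-fold at 30 and 13. Each chain holds an array that chose the probes, and the share of all probes was not counted. Nothing is read from the chain counts either.

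Whether cadmium at day 28 moved the probes was asked on the arrays that did not choose them. In all 6 the members varied far more than other probes: the SD of their log2 ratios was 0.89 to 1.24 for the higher and 0.92 to 1.40 for the lower members, against 0.23 to 0.41 over all probes. Large ratios in both directions were therefore frequent. The choice by large ratios itself favours variable probes, and some of the 6 arrays share an RNA with those that chose them. Dim probes could not be filtered from the comparison with all probes. The part of the choice in the larger SD was not tested, so nothing is read from it. In the counts of large ratios below, the same holds for any excess over the share of all probes. The medians of the 6 arrays ran from -0.86 to 0.33 for the higher and from -0.06 to 0.95 for the lower members.

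In 5 µM replicate 1 over 0 µM replicate 1, 19 of the 89 higher probes were at least 2-fold lower and 5 at least 2-fold higher, against 1.36% and 0.518% of all probes. Of the 50 lower probes 8 were at least 2-fold lower and 2 higher. Over 0 µM replicate 2 the same RNA had 20 higher probes at least 2-fold lower and 9 higher, against 2.35% and 1.59% of all probes. There the lower set had 22 probes at least 2-fold higher and 7 lower. By these counts the lower set leaned to higher values against 0 µM replicate 2. Against replicate 1 it had more 2-fold lower than higher probes, but its median was -0.06 with 23 of 50 above 0. The higher set leaned to lower values on both arrays, with medians of -0.18 and -0.31. All probes together also had more 2-fold lower than higher values on both arrays.

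At 1 µM the 2 arrays leaned in opposite directions for the higher probes, as they did over all probes. In 1 µM replicate 2 over 0 µM replicate 1, 19 were at least 2-fold higher and 12 lower (background 1.37% and 0.333%), and over 0 µM replicate 2, 6 were higher and 22 lower (0.835% and 1.9%). The lower probes had 9 higher and 4 lower on the first array, and 13 higher and 8 lower on the second. Their medians on the 2 arrays were 0.18 and 0.22.

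The other 2 arrays share an RNA with those that chose the probes, so part of their ratios was used in the choice. In 5 µM replicate 2 over 0 µM replicate 2, 39 higher probes were at least 2-fold lower and 5 higher (0.461% and 0.61% of all probes), and 15 lower probes were at least 2-fold higher and 3 lower. In 5 µM replicate 1 over 1 µM replicate 1, 13 higher probes were at least 2-fold higher and 6 lower (1.82% and 0.461%), and the lower set had 9 and 5. The medians on this array were 0.33 for the higher and 0.37 for the lower set.

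Counting direction alone, 34 of the 89 higher probes were lower in 5 µM replicate 1 than in both 0 µM RNAs (29.1% of all probes were) and 8 were higher (27.4% of all). Of the 50 lower probes, 23 were higher than in both and 9 lower. At 1 µM, 23 higher probes were lower than in both controls (23.6% of all) and 12 higher (22.9% of all), and of the lower probes 11 were higher and 6 lower. All 4 arrays put the exposed RNA below 0 µM at 12 of 89 higher probes (8.3% of all) and above it at 2, and above it at 5 of 50 lower probes (6.94% of all) and below it at 1. The arrays share control RNAs, so the counts are not independent.

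Limma was fitted to all probes on these 4 arrays, with a coefficient per dose and a dye term, over 2 RNAs at 0 µM, 1 at 1 µM and 1 at 5 µM. No probe passed an adjusted p of 0.05 for 5 against 0 µM (0% of 43603, smallest adjusted p 0.297 by limma) or for 1 against 0 µM (0%, smallest 0.461). At an unadjusted p under 0.05, limma gave 2772 probes at 5 µM (6.36%) and 1950 at 1 µM (4.47%). Of the higher members 16 were among them at 5 µM, 8 in each direction, and 22 at 1 µM, 8 higher and 14 lower at the dose. Of the lower members there were 13 at 5 µM, 8 higher and 5 lower, and 8 at 1 µM, 4 in each direction. The fit had 1 residual degree of freedom, which measures only the gap between the 2 arrays of 5 µM replicate 1. That gap is the difference between the 0 µM RNAs read through this RNA. The 1 µM coefficient and the dye term fit the 1 µM arrays exactly, so the SEs carry no scatter between those arrays. The absence of calls does not show that the probes kept their level.

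The fitted log2 changes at 5 against 0 µM had a median of -0.13 over the higher members (39 above and 50 below 0) and 0.24 over the lower members (31 above and 19 below), with -0.01 over all probes. At 1 µM the medians were 0.00 (44 above, 45 below) and 0.10 (30 above, 20 below). Both 5 µM arrays had the exposed RNA in green, and the dye term came from the pair of 1 µM arrays. In that pair 0 µM replicate 2 was in red and 0 µM replicate 1 in green, so the dye term also takes up a difference between these controls. The fitted 5 µM changes are therefore not plain means over the 2 controls. Were the loop to close exactly, they would be changes over 0 µM replicate 1 alone. Without a dye term the medians at 5 µM were -0.23 over the higher and 0.43 over the lower members. At 10 of the 42 higher probes with one sign on both 5 µM arrays the fit gave the opposite sign, as for prss59.1, which was -0.99 and -1.08 on the arrays and 0.39 in the fit.

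Elovl2, singled out after its values were seen, was one of the members whose RNAs split by exposure. In 5 µM replicate 1 its probe was 0.93 over 0 µM replicate 1 and 0.97 over 0 µM replicate 2, and in 1 µM replicate 2 it was 1.20 and 1.10. The fitted log2 change was 1.00 at 5 µM (SE 0.07, limma adjusted p = 0.314) and 1.15 at 1 µM (SE 0.05, adjusted p = 0.461). Its level was -0.95 in the day 4 RNA, -0.67 and -0.65 in the 0 µM RNAs of day 28, 0.33 and 0.49 at 1 µM, and 0.30 and 0.19 at 5 µM. All 3 unexposed RNAs were below all 4 exposed ones, and the day 4 RNA was 0.30 below the mean of the other unexposed RNAs. Of the 50 lower members 7 had such a split of levels (1.19% of all probes did). Among them were furina and the mitochondrial ND3, both picked after their values were seen. The reverse split held at 13 of the 89 higher members (1.06% of all probes), among them eno1a, tdo2b, ucp1 and sat2a.2. The choice of the probes favours this split, since the day 4 RNA and 2 of the exposed RNAs were used in it, so nothing is read from these counts.

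The members with the smallest p at 5 µM were otherwise of mixed direction. Their order comes from the fit with the dye term, so the difference between the 0 µM RNAs enters it. Eno1a, an enolase of glycolysis in the higher set, was -1.11 and -1.60 in 5 µM replicate 1 over the 0 µM RNAs, with a fitted change of -1.54 (SE 0.22, limma adjusted p = 0.470). Anxa3b, an annexin, was -0.69 and -0.58, fitted at -0.91 (SE 0.09, limma adjusted p = 0.336). Further higher members of this kind were ucp1 (-0.72 and -1.13), of the mitochondrial uncoupling proteins, and 2 probes without a gene, A_15_P181626 (-1.69 and -2.28) and A_15_P177666 (-2.06 and -1.69). Tdh (0.68 and 0.80), which breaks down threonine, and g6pc1a.2 (0.40 and 0.77), which releases glucose, were higher on both arrays. One of the 2 probes of apcs, at -0.19 and 0.25, and one of acat2, at -0.16 and -0.29, were fitted at 2.05 and 0.49 with the dye term. Other probes of eno1a were at 0.03 and -0.002 and at -0.23 and -0.23. Those of anxa3b were at -0.07 and 0.15 and at -0.76 and 0.13. In 5 µM replicate 2 over 0 µM replicate 2, tdh was -1.06 and g6pc1a.2 -0.37. The choice of the probes favours low values in that exposed RNA.

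In the lower set the smallest p was that of A_15_P437940, a probe without a gene, which was -2.68 and -2.63 in 5 µM replicate 1 over the 0 µM RNAs (fitted -2.33, SE 0.07, limma adjusted p = 0.297). Ctsl.1, which encodes a cathepsin L protease, was -3.61 and -4.53 (fitted -3.58, SE 0.40, limma adjusted p = 0.378). These values rested on 1 RNA at 5 µM. In 5 µM replicate 2 over 0 µM replicate 2 the 2 probes were -0.50 and -0.51. The choice of the lower members favours high values in 5 µM replicate 2. Tacc3, a gene of the mitotic spindle, was -1.59 and -1.71, and -1.18 in 5 µM replicate 2. Another probe of tacc3 did not share this, at -0.09 and -0.19, and 0.02 in 5 µM replicate 2. Hsd11b2 (0.75 and 0.42), zgc:113363 (0.70 and 1.23) and the probes A_15_P473335 (1.22 and 1.89), A_15_P117850 (1.13 and 1.06) and A_15_P543177 (0.29 and 0.39) were higher on both arrays. A_15_P601457 was -0.11 and 0.19, but was fitted at 1.34 with the dye term.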

How the data were processed

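The data are liver RNA ratios from 8 arrays of 7 RNAs. Per the submitters' processing notes the authors used limma, with no version given; their background correction and normalization are not stated. The deposited table holds log2 ratios of 43603 probes on each array, 0 of them missing; base and direction (red over green) are likely, not stated. No intensities were used, so dim probes could not be filtered, and the number of arrays limits the precision. Array medians lay near 0.

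Gene symbols came from the platform table, for 23717 probes with 1 symbol, 0 with several and 19886 with none. For 23534 probes the gene ID was found in RefSeq and the RefSeq symbol was used. How many symbols this changed was not counted. Members were probes at least 2-fold one way on both day 4 arrays. Named are, per direction, the 10 largest by their smaller absolute ratio and the 10 with the smallest p at 5 µM. Members on marker lists or next to the fold limit are named too. Others are marked as picked later. Members and lists were chosen with earlier results of these data known. Limma 3.58.1 in R 4.3.3 (lmFit, eBayes, two-sided, Benjamini-Hochberg over all probes) was also run on simulated data with independent noise per array. The simulated 0 µM RNAs did not differ, so that run could not show how a difference between them enters the fit. Alternatives were other sets of arrays, no dye term, scaling, centring, a replicate block, levels per RNA, RNAs left out and other fold limits. No sequence table was used.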

Additional observations from a re-analysis of the deposited data

How the results depend on the processing

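The number of members depends on the fold limit: 222 higher and 260 lower probes at 1.5-fold, and 33 and 4 at 3-fold, against 89 and 50 at 2-fold. At 3-fold the median log2 change of the higher members at 5 µM turned to 0.20, against -0.13 at 2-fold. No member was called for 5 or 1 against 0 µM in any other fit with residual degrees of freedom, except that all 8 arrays together gave 1 call at 5 µM, elovl2 (log2 change 0.96, limma adjusted p = 0.022), in a fit that holds the arrays that chose it. The median log2 change of the higher members at 5 µM, -0.13, became -0.59 on levels per RNA over the 6 arrays without day 4. Leaving out single RNAs of the 6 arrays gave medians from -1.07 (without 5 µM replicate 1) to 0.11 for the higher and from 0.21 to 0.57 for the lower members at 5 µM, and from -1.29 (without 1 µM replicate 2; -1.08 without 0 µM replicate 1) to 0.00 and from -0.04 to 0.31 at 1 µM. At 1 µM the fit of the 6 arrays with the replicate block gave medians of -0.58 for the higher and 0.67 for the lower members, against 0.00 and 0.10; it made 0 calls. No source says that equal replicate numbers pair RNAs, and across probes the replicate differences correlated at -0.0559 (0 and 1 µM), 0.627 (0 and 5 µM) and -0.0156 (1 and 5 µM). With the array of 1 µM replicate 2 and 0 µM replicate 1 left out of the 6, the higher members had a median of -1.08 at 1 µM. With it the median was -0.27 over the 6 arrays and 0.00 over the 4. This alternative was chosen after seeing the data. Without 5 µM replicate 1 the only 5 µM RNA left was replicate 2, and without 1 µM replicate 2 the only 1 µM RNA left was replicate 1. Both were used to choose the probes, so the choice favours negative medians of the higher members there. The levels per RNA hold both as well. The share of the choice in these shifts, and other causes, were not tested. Fits without 0 µM replicate 2 or 5 µM replicate 1 left no residual degrees of freedom and gave values without a test. Signal over background was not used here, so probes near the detection limit stand among the rest.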
